A study of Mus musculus with 9 samples.

Results

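The nuclear genes of the respiratory chain were followed in undifferentiated HC11 cells, a mouse mammary epithelial line used as a model of lactogenic differentiation. Members were chosen by name alone: symbols that begin with *Ndufa*, *Ndufb*, *Ndufc*, *Ndufs*, *Ndufv*, *Uqcr* or *Atp5*, the cytochrome oxidase subunit symbols *Cox4* to *Cox8* with their suffixes, and *Sdha* to *Sdhd*, leaving out symbols with the pseudogene suffix -ps and the *Ndufaf* assembly factors. The rule found 89 of the 55228 genes in the count table. By the start of the symbol alone, 41 were assigned to complex I, 4 to complex II, 8 to complex III, 19 to complex IV and 17 to complex V. *Ndufa4* and *Ndufa4l2* are therefore counted under complex I because of their names, and not because of where their proteins are found. The annotation lists 85 of them as protein-coding and 4, *Ndufs6b*, *Ndufb4c*, *Ndufa11b* and *Cox6c2*, as processed pseudogenes, none of which had enough counts to be tested. Of the 89, 78 had enough counts to be tested among 15253 genes, and 77 of the 78 had at least 10 counts in every culture.

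Polyadenylated RNA was sequenced from 3 cultures each of parental HC11 cells (*WT*) and of 2 edited lines, *KD1* and *KD2*. The labels name the edited lines Vangl2 knockout 1 and Vangl2 knockout 2. They were made with Cas9, a different guide for each line and a repair template carrying stop codons, in the gene of the planar cell polarity protein VANGL2, and each was grown from a single colony, whereas the parental cells were not cloned. A difference between *KD1* or *KD2* and *WT* therefore cannot be told apart from a difference between a colony and the uncloned population. All 9 cultures grew in the same medium with serum, insulin and epidermal growth factor, without a differentiation treatment, and nothing in the sources says that replicates were separate thaws, so the p-values measure the spread between these dishes. The comparisons ask whether cells edited at *Vangl2* differ from parental cells in these transcripts, and whether the edited lines differ from each other.

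Complexes I to IV pass electrons from NADH and succinate to oxygen, and all of them except complex II pump protons across the inner mitochondrial membrane. Complex V, the ATP synthase, uses the proton gradient to make ATP. Every complex except II combines subunits made from nuclear genes with subunits made from mitochondrial DNA, so the nuclear genes must be expressed in step with each other and with the mitochondrial genome. Their promoters are known for sites of NRF1, of the ETS factor GABPA, of YY1 and of the estrogen-related receptor ESRRA, factors that act with coactivators of the PGC-1 family. The 13 subunits encoded by mitochondrial DNA had 0 counts in every culture, so nothing can be said here of that side of the chain.

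The promoters shown here carry the letters of those motifs in members whose transcripts are described next. Each sequence is the strand of the gene, 5′ to 3′, from RefSeq for GRCm38.p6, and it stops before the most upstream annotated start of the gene, so it holds no transcribed base. Capitals mark the motif letters. In *Sdha*, *Sdhd* and *Cox6a1*, whose transcripts were lower in *KD1* and in *KD2*, they mark NRF1 letters. In *Atp5g3*, which was also lower in each line, they mark ESRRA letters, and in *Uqcrh*, which was higher in *KD2*, ETS letters. These promoters are examples from a larger number with such letters. A link between the letters and the direction of change was not tested.
Sdha, chr13:74350281-74350400, minus strand: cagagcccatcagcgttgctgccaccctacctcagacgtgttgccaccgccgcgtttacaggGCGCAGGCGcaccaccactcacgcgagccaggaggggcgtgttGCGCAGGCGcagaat
Sdhd, chr9:50603850-50603969, minus strand: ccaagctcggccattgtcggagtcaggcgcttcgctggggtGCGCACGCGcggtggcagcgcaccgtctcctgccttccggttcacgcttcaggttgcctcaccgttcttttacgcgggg
Cox6a1, chr5:115348982-115349101, minus strand: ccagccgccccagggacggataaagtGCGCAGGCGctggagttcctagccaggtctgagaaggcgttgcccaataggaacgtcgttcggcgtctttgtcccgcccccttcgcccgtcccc
Atp5g3, chr2:73911327-73911446, minus strand: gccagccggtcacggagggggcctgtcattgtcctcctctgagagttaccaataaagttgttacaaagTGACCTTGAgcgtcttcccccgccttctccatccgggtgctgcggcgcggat
Uqcrh, chr4:116075072-116075191, minus strand: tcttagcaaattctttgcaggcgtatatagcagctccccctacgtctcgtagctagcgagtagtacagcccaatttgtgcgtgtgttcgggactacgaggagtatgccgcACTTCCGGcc

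Depth ran from 19231428 to 28360592 counts per culture, and values are given as CPM, in which the library size has been adjusted by TMM. On this scale 3 counts correspond to 0.0999 to 0.154 CPM. WT replicate 1 and KD2 replicate 3 stood apart from their own group: their chi-square per degree of freedom against the other cultures of the line ran from 10.7 to 22.1, compared with 1.37 to 3.38 for all other pairs of replicates. *Vangl2* had 66, 99 and 86 counts in *WT*, 75, 48 and 69 in *KD1* and 90, 118 and 90 in *KD2*. A stop codon need not lower a transcript, so these counts do not check the labels. Epithelial markers were abundant, and markers of other cells were low but not all absent. Of 4 leukocyte markers, *Ptprc*, *Adgre1* and *Cd3e* had at most 3 counts in any culture, while *Cd68* had 61 to 210 and was higher in *KD1* (log2 fold change 0.89, adjusted p = 0.00157). Of 3 endothelial markers, *Kdr* had at most 2 counts in any culture. *Cdh5* had 0, 0 and 1 counts in *WT*, 5, 7 and 5 in *KD1* and 22, 24 and 7 in *KD2*. *Pecam1*, with 19 to 132, was 1.18 in *KD1* (adjusted p = 6.81e-06) and -1.23 in *KD2* (adjusted p = 3.55e-05), in *KD2* opposite in direction to *Cdh5*. The summed CPM of the leukocyte markers ran from 2.98 to 5.89 in *WT*, from 6.82 to 8.30 in *KD1* and from 3.52 to 4.62 in *KD2*, and that of the endothelial markers from 2.00 to 2.49, from 4.87 to 5.47 and from 1.33 to 1.82, in the same order. The 6 epithelial markers summed to 4818 to 5389 CPM in the *WT* cultures. The sums lay between 5464 and 5607 CPM in *KD1*, and between 2873 and 3565 CPM in *KD2*. These markers did not move together in *KD2*. The log2 fold changes were -0.96 for *Krt5*, -0.90 for *Krt14*, -0.69 for *Cdh1* and -0.36 for *Epcam*, but 0.76 for *Krt8*. Each had an adjusted p under 0.05, while *Krt18*, at 0.13, did not. The part of these marker levels in the results was not tested.

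Respiratory chain transcripts were lower in each edited line than in *WT*. The members summed to 9981, 9893 and 10516 CPM in the 3 *WT* cultures, 8093, 8287 and 8001 CPM in *KD1*, and 7583, 7336 and 8912 CPM in *KD2*. Every culture of either edited line was below every *WT* culture. In RNA from whole dishes, less RNA per cell and fewer cells that make it cannot be told apart. In *KD1*, 54 of the 78 tested members (69.2%) were lower at an adjusted p under 0.05 by edgeR's quasi-likelihood test, against 30.0% of all genes tested, and 0 were higher, against 26.9% of all genes. The count of higher members was also 0 at an unadjusted p under 0.05 and by DESeq2. It was 1 with at least 10 counts in every culture, and 1 without WT replicate 1 and KD2 replicate 3. It was 2 with only the 6 cultures compared, 2 without KD2 replicate 3, and 2 with a GC and length correction, with or without a replicate block. In these settings 29.7% to 34.3% of all genes were higher. The median log2 fold change of the members was -0.29, compared with -0.03 over all genes, and 75 of the 78 values were negative. In *KD2*, 51 members (65.4%) were lower, against 33.3% of all genes, and 7 were higher, against 34.0%. The median was -0.32, compared with 0.01 over all genes, with 63 of 78 negative.

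**Figure D1:**
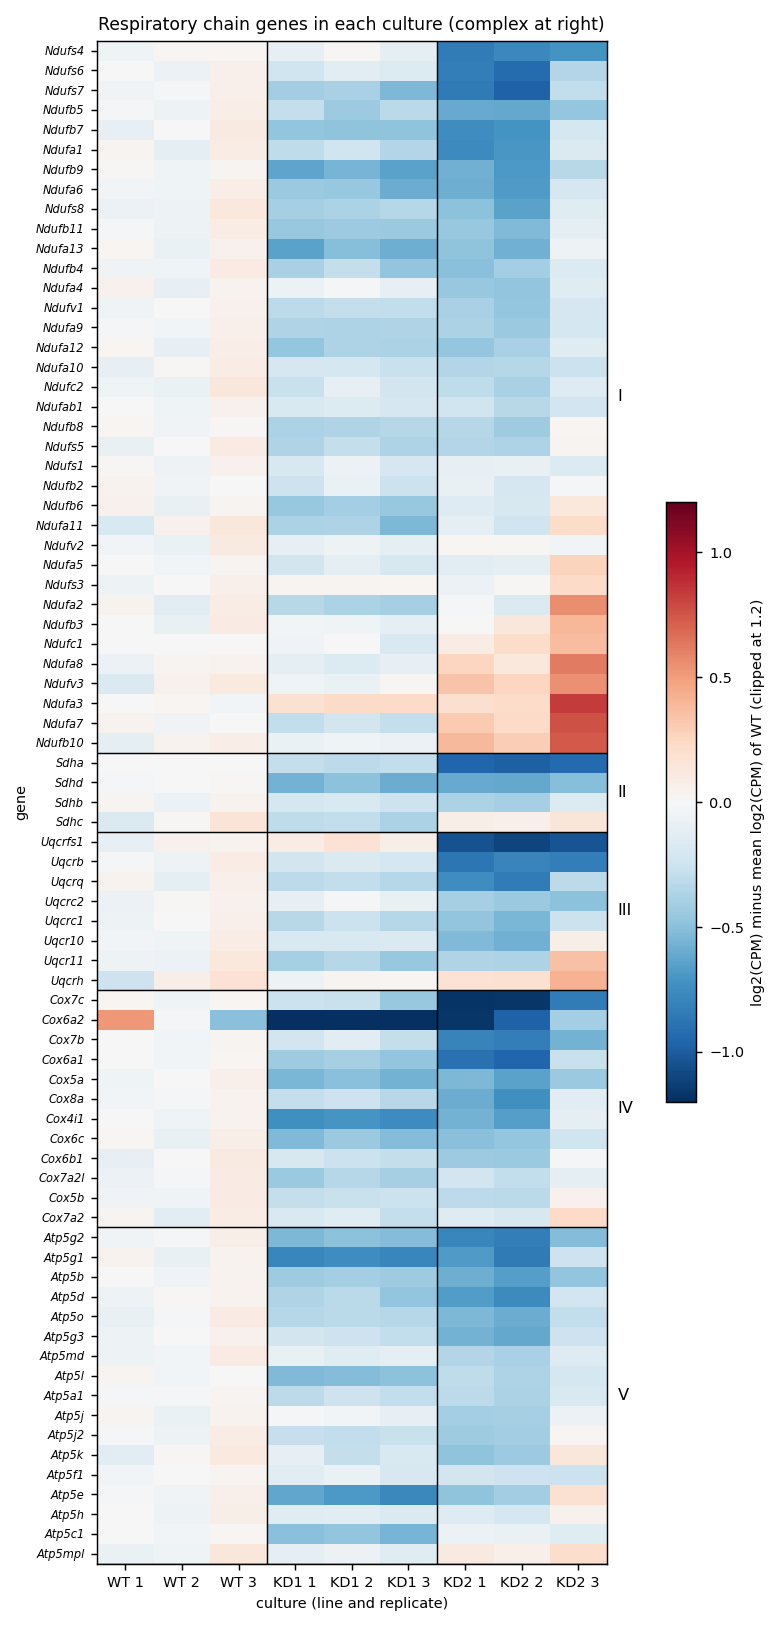
Each row is a gene, for 77 of the 78 tested, and each column a culture. Colour gives log2(CPM) minus the mean log2(CPM) of WT, clipped at 1.2 in either direction, with complexes I to V separated by lines. The KD1 and KD2 columns are mostly blue, KD2 replicate 3 less so than the other KD2 cultures, and the red rows of complex I in KD2 are the members that rose there.

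Most of these differences were small. With a change of more than 2-fold also required, *KD1* had 1 lower member, *Cox6a2*, against 7.49% of all genes, and 0 higher members, against 9.34%. *KD2* had 2 lower members, *Uqcrfs1* and *Cox7c*, against 6.71% of all genes, and 0 higher members, against 14.5%. The groups were nevertheless often apart. In 64 of the 78 members every *KD1* culture lay below every *WT* culture, which was so for 36.4% of all genes. In 46 members every *KD2* culture lay below every *WT* culture, against 33.4% of all genes. The comparisons of *KD1* and of *KD2* with *WT* share the *WT* cultures, so a low member in each is not 2 independent observations.

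**Figure D2:**
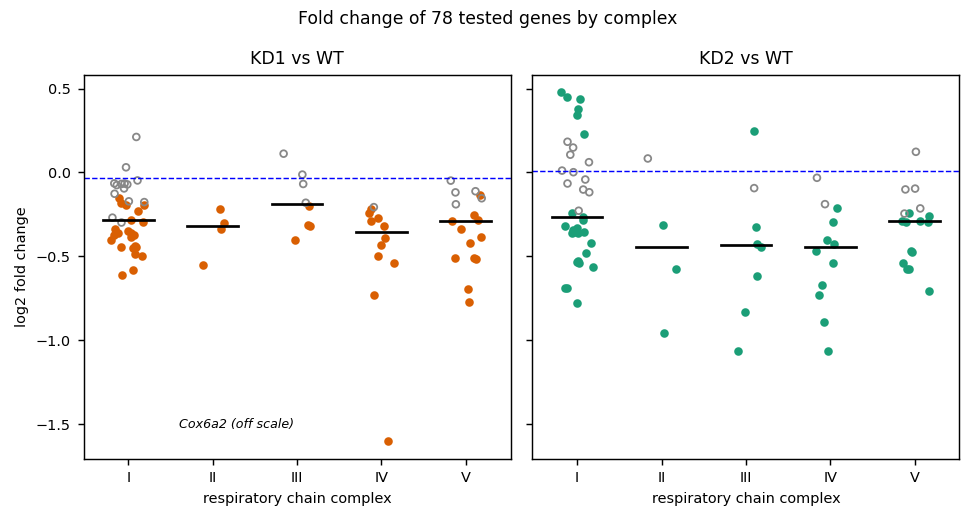
Points are log2 fold changes of the 78 tested genes against WT, by complex, for KD1 (left) and KD2 (right). Filled points had an adjusted p under 0.05, open points did not, black bars are medians and the dashed line is the median of all genes. Medians lie between -0.36 and -0.19 in KD1 and between -0.45 and -0.27 in KD2, with Cox6a2 off the scale in KD1.

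Complex I, which takes electrons from NADH, held lower and higher members. Counts for this and the other complexes are read against the shares of all genes, 30.0% lower and 26.9% higher in *KD1*, and 33.3% and 34.0% in *KD2*. In *KD1*, 23 of its 37 tested subunits (62.2%) were lower and 0 higher, with a median of -0.28. In *KD2*, 20 (54.1%) were lower and 6 (16.2%) higher, with a median of -0.27, so the higher share was below that of all genes. The nuclear core subunits carry the flavin and the iron-sulfur clusters or sit next to them. *Ndufs7*, a core subunit close to the site of quinone binding, had 49.5, 49.96 and 53.1 CPM in *WT*, 38.0, 38.9 and 35.0 in *KD1* and 28.2, 26.0 and 41.5 in *KD2*. Neither edited line overlapped *WT*. Its log2 fold change was -0.45 in *KD1* (SE 0.13, adjusted p = 0.00853) and -0.69 in *KD2* (SE 0.13, adjusted p = 0.000347). *Ndufs8*, another iron-sulfur subunit, was -0.37 in *KD1* and -0.42 in *KD2*, and *Ndufv1*, which binds NADH, was -0.30 and -0.35, each past the threshold. *Ndufs1*, the largest core subunit, was -0.15 in *KD1* at an adjusted p of 0.0394, a call that was lost in 13 of the alternative analyses. *Ndufs3* and *Ndufv2* passed the test in neither line.

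Among the accessory subunits of complex I the spread was wider. *Ndufb9* was lowest against *WT* in *KD1*, with 95.5, 91.1 and 96.9 CPM in *WT*, 61.0, 64.3 and 60.5 in *KD1* and 63.5, 58.7 and 75.0 in *KD2*. It fell by 0.61 on the log2 scale in *KD1* (adjusted p = 1.56e-05) and by 0.53 in *KD2* (adjusted p = 4.67e-05). *Ndufs4*, whose loss in humans and mice causes a Leigh-like encephalopathy, had 39.5, 41.6 and 41.7 CPM in *WT* and 38.2, 41.4 and 37.7 in *KD1*, which overlapped, but 22.96, 23.9 and 24.9 in *KD2*. Its log2 fold change in *KD2* was -0.78 (SE 0.07, adjusted p = 1.78e-07). The 5 largest rises in *KD2* were all in accessory subunits of complex I. *Ndufb10* had 47.8, 53.2 and 54.7 CPM in *WT*, 49.1, 49.98 and 49.2 in *KD1* and 67.9, 63.7 and 86.1 in *KD2*, a rise of 0.48 (SE 0.10, adjusted p = 0.000533). *Ndufa7* had 30.8, 29.1 and 30.2 CPM in *WT*, 24.4, 25.7 and 24.6 in *KD1* and 37.2, 35.2 and 51.1 in *KD2*, a rise of 0.45 (adjusted p = 0.00284). The values in *KD2* were 0.44 for *Ndufa3*, 0.38 for *Ndufv3* and 0.34 for *Ndufa8*. In each of these 5 genes KD2 replicate 3 was the highest culture of its line.

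Complex II, succinate dehydrogenase, links the chain to the citric acid cycle and has no mitochondrially encoded subunit. All 4 of its genes were lower in *KD1*, and 3 were lower in *KD2*. *Sdha*, the flavoprotein that oxidises succinate, had 219, 221 and 221 CPM in *WT*, 180, 177 and 180 in *KD1* and 114, 112 and 115 in *KD2*. The 3 groups were widely separated relative to their spread. Its log2 fold change was -0.30 in *KD1* (SE 0.05, adjusted p = 0.00014) and -0.95 in *KD2* (SE 0.05, adjusted p = 1.54e-09). *Sdhd*, a membrane anchor and a known tumour suppressor gene, had 160, 163 and 164 CPM in *WT*, 110, 116 and 107 in *KD1* and 107, 106 and 114 in *KD2*. The lines were lower by nearly the same amount, at -0.55 (adjusted p = 1.36e-06) and -0.57 (adjusted p = 7.16e-07). The iron-sulfur subunit *Sdhb* was -0.22 in *KD1* and -0.31 in *KD2*, both past the threshold. *Sdhc*, the other anchor, was -0.34 in *KD1* (adjusted p = 0.0016), and its value in *KD2* was 0.08 (adjusted p = 0.335).

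Complex III passes electrons from ubiquinol to cytochrome c. In *KD1*, 4 of its 8 genes were lower, with a median of -0.19. In *KD2*, 6 were lower and 1 higher, with a median of -0.43. *Uqcrfs1*, the Rieske iron-sulfur protein, had 109, 121 and 120 CPM in *WT*, 124, 132 and 123 in *KD1* and 56.7, 54.3 and 57.0 in *KD2*. All 3 *KD1* cultures were above all 3 *WT* cultures, and the *KD2* cultures were far below both. Its log2 fold change was 0.11 in *KD1* (SE 0.06, adjusted p = 0.13) and -1.06 in *KD2* (SE 0.06, adjusted p = 4.47e-09). The core proteins were lower in *KD2*, *Uqcrc1* at -0.42 and *Uqcrc2* at -0.44, while in *KD1* *Uqcrc1* was -0.31 (adjusted p = 0.0019) and *Uqcrc2* was -0.07 (adjusted p = 0.321). *Uqcrb*, a small subunit near the ubiquinone site, had 66.5, 64.8 and 72.0 CPM in *WT*, 58.1, 60.2 and 58.6 in *KD1* and 37.1, 39.1 and 38.0 in *KD2*, with log2 fold changes of -0.20 (adjusted p = 0.0101) and -0.83 (adjusted p = 3.78e-08). The member that was higher in *KD2*, named after its values were seen, was the hinge protein gene *Uqcrh*, at 0.25 (adjusted p = 0.0357).

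Complex IV, cytochrome c oxidase, was the complex with the largest share of lower subunits, apart from the 4 genes of complex II in *KD1*. Of its 12 tested genes, 11 were lower in *KD1* and 10 in *KD2*, with 0 higher in either, and the medians were -0.36 and -0.45. *Cox4i1*, the subunit through which ATP inhibits the enzyme, had 372, 358 and 381 CPM in *WT*, 222, 227 and 219 in *KD1* and 249, 233 and 344 in *KD2*. KD2 replicates 1 and 2 were close to *KD1*, and KD2 replicate 3 was close to *WT*. Its log2 fold change was -0.73 in *KD1* (SE 0.11, adjusted p = 5.43e-05) and -0.43 in *KD2* (SE 0.11, adjusted p = 0.00315). *Cox5a* was even across cultures, with 136, 140 and 146 CPM in *WT*, 96.5, 99.6 and 94.9 in *KD1* and 97.1, 90.3 and 103 in *KD2*, and log2 fold changes of -0.54 in each line. *Cox7c* had 46.3, 44.0 and 46.4 CPM in *WT*, 38.2, 37.9 and 33.2 in *KD1* and 20.1, 20.2 and 25.4 in *KD2*. It fell by 0.32 in *KD1* (adjusted p = 0.0061) and by 1.06 in *KD2* (SE 0.09, adjusted p = 1.86e-07). *Cox5b* was -0.27 in *KD1* (adjusted p = 0.0173) and -0.19 in *KD2* (adjusted p = 0.0741).

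Several complex IV subunits exist as ubiquitous and tissue-restricted forms, and HC11 cells used the ubiquitous ones. Per kilobase of exon, *Cox6a1* had 281 ± 5.31 FPKM in *WT* (SD, n = 3), whereas its heart and skeletal muscle counterpart *Cox6a2* had 1.80 ± 0.638. The forms *Cox8b* and *Cox8c* had 0 counts in every culture. *Cox4i2*, the lung form, had 3 to 10 counts per culture, *Cox7a1*, the heart and muscle form, 2 to 9, and the testis forms *Cox6b2* and *Cox7b2* at most 4. *Ndufa4l2*, a paralog of *Ndufa4* known to be induced by hypoxia, had 5, 3 and 5 counts in *WT*, 1, 2 and 0 in *KD1* and 1, 1 and 0 in *KD2*, too few to be tested. Of the ubiquitous forms, *Cox6a1* was -0.43 in *KD1* (adjusted p = 0.0124) and -0.67 in *KD2* (adjusted p = 0.000502), and *Cox7b* -0.22 and -0.73. *Cox6b1*, at -0.24 and -0.29, and *Cox8a*, at -0.29 and -0.47, also passed the threshold in each line. *Cox7a2l*, which joins complexes III and IV into supercomplexes, was -0.39 in *KD1* and -0.21 in *KD2*, and *Cox7a2* was -0.21 and -0.03, past the threshold in neither.

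*Cox6a2* was the exception among the restricted forms. It had 33, 29 and 17 counts in *WT*, 4, 2 and 0 in *KD1* and 13, 18 and 18 in *KD2*, which is 0.83 to 1.69 CPM, at most 0.148 CPM, and 0.525 to 0.885 CPM. The fitted log2 fold change was -3.89 in *KD1* (SE 0.52, adjusted p = 2.15e-05) and depends on the prior count, since *KD1* had 6 counts in all. The ratio of summed counts per library size was 15.7 for *WT* over *KD1*, with an exact 95% interval of 6.88 to 44.0 that covers counting error only. In *KD2* the log2 fold change was -0.89 (adjusted p = 0.0345), and that call was lost in 6 alternative analyses. Exons of *Cox6a2* overlap those of *Itgad*, a gene of the other strand, and the summed level of 4 striated muscle markers was at most 1.58 CPM in any culture. Of these, *Acta1*, with 1 to 17 counts, was 2.06 in *KD1* and 2.39 in *KD2*, opposite in direction to *Cox6a2*.

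Complex V had 12 of 17 genes lower in each line, with 0 higher and medians of -0.29 in each. Its catalytic subunit gene *Atp5b* had the highest CPM of any member, 1382, 1332 and 1415 in *WT*, 1021, 1039 and 1022 in *KD1* and 914, 870 and 991 in *KD2*. Per kilobase of exon it ranked second to *Atp5o* at 325 ± 9.85 FPKM in *WT* (SD, n = 3), and first when the length of the longest coding transcript was used. Its log2 fold change was -0.42 in *KD1* (SE 0.06, adjusted p = 1.72e-05) and -0.57 in *KD2* (SE 0.06, adjusted p = 6.51e-07). *Atp5a1*, the other subunit of the catalytic head, was -0.29 in each line, with 876, 877 and 909 CPM in *WT*, 714, 745 and 721 in *KD1* and 715, 683 and 783 in *KD2*. *Atp5c1*, the shaft that turns inside the head, differed between the lines: 246, 240 and 249 CPM in *WT*, 173, 177 and 167 in *KD1*, and 234, 232 and 222 in *KD2*. It fell by 0.51 in *KD1* (adjusted p = 1.58e-06), its value in *KD2* was -0.10 (adjusted p = 0.12), and *KD2* exceeded *KD1* by 0.41 (SE 0.05, adjusted p = 8.14e-06). *Atp5e*, the smallest subunit of the shaft, had 69.9, 68.8 and 73.7 CPM in *WT*, 46.0, 43.9 and 41.5 in *KD1* and 50.6, 52.9 and 80.3 in *KD2*. It fell by 0.69 in *KD1* (adjusted p = 0.000516), while KD2 replicates 1 and 2 were below *WT* and KD2 replicate 3 was above it, and its value of -0.21 in *KD2* had an adjusted p of 0.165.

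The ring of subunit c, which turns as protons pass, is made of an identical protein from *Atp5g1*, *Atp5g2* and *Atp5g3*. All 3 genes were lower in each line. *Atp5g1* had 119, 108 and 118 CPM in *WT*, 66.7, 68.7 and 66.8 in *KD1* and 71.6, 63.9 and 96.7 in *KD2*, and was the largest fall in *KD1* after *Cox6a2*, at -0.77 (SE 0.11, adjusted p = 4.98e-05), compared with -0.58 in *KD2*. *Atp5g2* was -0.52 and -0.71, and *Atp5g3* -0.26 and -0.47. Of the 50-base windows in the exons of *Atp5g2*, 38.3% also occur in other genes, as do 89.8% of those of *Atp5o*, which shares its name with another annotated copy, so their counts may hold or miss reads of those copies.

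**Figure D3:**
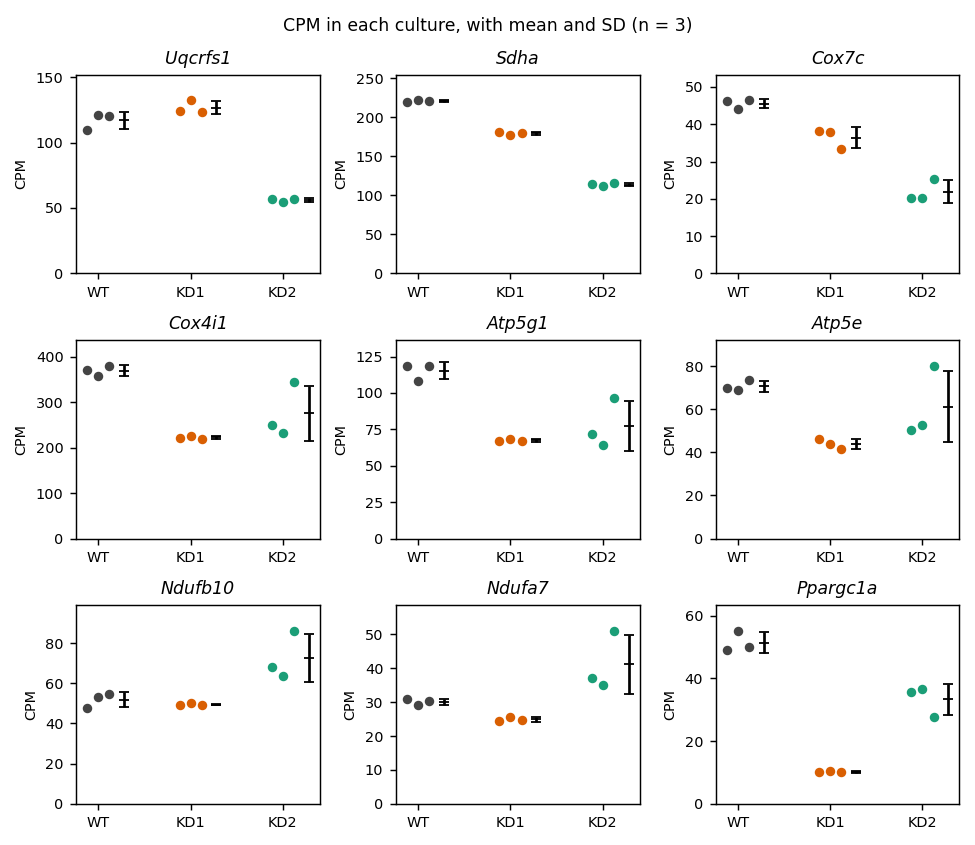
CPM in each culture (points, 3 per line) for 8 members and the coactivator gene Ppargc1a, with the mean and SD of each line beside them. Uqcrfs1, Sdha and Cox7c are lowest in KD2. Cox4i1, Atp5g1 and Atp5e are lowest on average in KD1, with KD2 replicate 3 near or above WT, and Ppargc1a is at 10.0 to 10.6 CPM in KD1 against 49.0 to 55.2 in WT.

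Position on the chromosomes moved with the values in *KD2*. All 6 members on chromosome 13, *Uqcrfs1*, *Cox7c*, *Sdha*, *Uqcrb*, *Ndufs4* and *Ndufs6*, were lower in *KD2*, with a median log2 fold change of -0.89. The other 588 tested genes of that chromosome had a median of -0.66. These 6 members are spread from *Uqcrfs1*, at 30540308 to 30545362 of GRCm38, to *Ndufs4*, at 114287795 to 114388258, and 5 of them had the largest falls in *KD2* among called members that did not overlap with *WT*. *Cox6a2*, on chromosome 7, was -0.89 in *KD2* and overlapped with *WT*. The 3 members on the X chromosome, *Ndufb11*, *Ndufa1* and *Cox7b*, were also all lower, with a median of -0.53 beside -0.63 for 447 other genes. On chromosome 17, 3 of 6 members were higher and 1 lower in *KD2*, with a median of 0.19 beside 0.28 for 696 other genes, and *Ndufb10*, *Ndufa7* and *Ndufv3* lie there. In *KD1* the other genes of these 3 chromosomes had medians of -0.04, -0.09 and 0.01, for 13, X and 17.

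**Figure D4:**
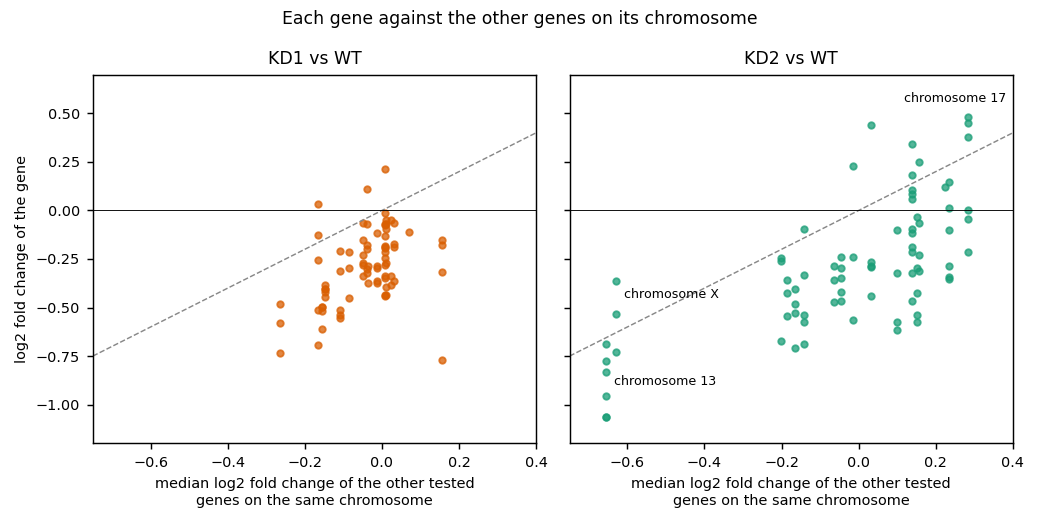
Each point is a tested gene, with its log2 fold change against WT on the y axis and the median log2 fold change of the other tested genes on its chromosome on the x axis, for KD1 (left) and KD2 (right); the dashed line marks equality and Cox6a2 is left out. In KD2 the members on chromosomes 13 and X stand at the far left and low, and those on chromosome 17 at the right.

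The lower level of the chain was not limited to those chromosomes. With the members on chromosomes 13 and X left out, a step chosen after the data were seen, 42 of 69 (60.9%) were lower and 7 (10.1%) higher in *KD2*. Their median was -0.29. Of all genes, on any chromosome, 33.3% were lower and 34.0% higher. After the median of the other genes on its own chromosome was subtracted from each member, the median was -0.30 in *KD2*, with 67 of 78 members below their chromosome, and -0.26 in *KD1*, with 74 of 78 below. The 2 members lower by more than 2-fold in *KD2* are both on chromosome 13.

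The direct comparison of the edited lines gave differences in both directions, and their balance changed with the libraries and the scale. In *KD2* relative to *KD1*, 19 members (24.4%) were higher, against 34.8% of all genes, and 16 (20.5%) were lower, against 33.0%. Both shares lay below those of all genes, and the median difference was 0.02. With library size alone 35 were higher and 8 lower (44.9% and 10.3%), against 42.2% and 26.1% of all genes, so the higher share lay near that of all genes. Without KD2 replicate 3 the counts were 19 and 32 (24.4% and 41.0%), against 36.7% and 35.3%. Without KD2 replicate 3 and WT replicate 1 they were 20 and 36 (25.6% and 46.2%), against 38.5% and 37.6%. Past 2-fold, 1 was higher, *Cox6a2*, against 14.7% of all genes, and 1 lower, *Uqcrfs1*, against 8.58%. *Uqcrfs1* differed by -1.18 (SE 0.06, adjusted p = 8.93e-10), *Cox7c* by -0.74, *Ndufs4* by -0.71, *Sdha* by -0.66 and *Uqcrb* by -0.63. The largest differences in the other direction were 3.00 for *Cox6a2*, again with 6 counts in *KD1*, then 0.72 for *Ndufa7* (adjusted p = 5.95e-05), 0.55 for *Ndufb10*, 0.52 for *Ndufa2* and 0.48 for *Atp5e*. All 6 members on chromosome 13 were lower in *KD2* than in *KD1*, and 5 of the 6 on chromosome 17 were higher. The other tested genes of these chromosomes had median differences of -0.61 on 13 and 0.26 on 17. By complex, complex III had 4 lower and 1 higher, complex I had 4 lower and 10 higher. *Sdhd* differed by -0.02 and *Cox5a* by less than 0.01, with adjusted p of 0.734 and 0.963, which does not show that they were equal.

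The cultures of a line were not equally close to each other, and short transcripts moved together. In KD2 replicate 3, 72 of 78 members lay above the mean of *KD2*, by a median of 0.19 on the log2 scale, and the 615 other coding genes with transcripts under 1000 bases did so by a median of 0.16, while the median of all tested genes was under 0.01. WT replicate 3 had 75 of 78 members above the mean of *WT*, by a median of 0.06, again with 0.06 for the other short genes. Respiratory chain transcripts are short: 44 of the 78 (56.4%) are under 1000 bases, against 5.24% of coding genes. Without KD2 replicate 3, 59 members were lower in *KD2*, with a median of -0.40, and 62 in *KD1*, against 34.0% and 32.9% of all genes. Without it and WT replicate 1 together, an alternative added after the data were seen, 62 were lower in *KD2* and 70 in *KD1*, against 36.8% and 36.0% of all genes. Without WT replicate 3, 34 were lower in *KD1* and 45 in *KD2*, with medians of -0.24 and -0.26, against 24.5% and 28.7% of all genes.

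**Figure D5:**
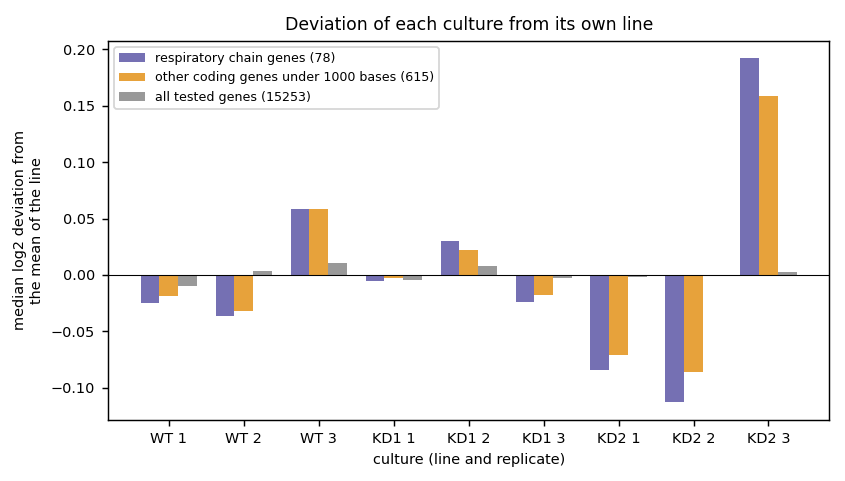
Bars give, for each culture, the median deviation of log2(CPM) from the mean of its own line, for the 78 respiratory chain genes, 615 other coding genes with transcripts under 1000 bases, and all 15253 tested genes. The respiratory chain and the other short genes move together, furthest in KD2 replicate 3 at 0.19 and 0.16.

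The same comparisons were made in genes of like length and like level. Of the other coding genes under 1000 bases, 28.8% were lower in *KD1* and 32.8% in *KD2*, with medians of -0.09 and -0.01. Of the members under 1000 bases, 63.6% were lower in *KD1* and 59.1% in *KD2*, and of the longer members 76.5% and 73.5%. With a correction for GC content and length, 53 members (67.9%) were lower in *KD1* and 57 (73.1%) in *KD2*, against 33.1% and 36.5% of all genes. Of 6340 other genes with a mean of 25.6 to 234 CPM, the range from the 5 to the 95 percentile of the members, 34.7% were lower in *KD1* with a median of -0.04, and 46.5% in *KD2* with a median of -0.13.

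Other genes that serve the chain are read against the shares of all genes given above, 30.0% lower and 26.9% higher in *KD1*, and 33.3% lower and 34.0% higher in *KD2*. Of 16 complex I assembly factors, 7 (43.8%) were lower and 2 higher in *KD1*, and 5 (31.3%) lower and 6 higher in *KD2*, with medians of -0.17 and 0.03. *Ndufaf4* was lower in each line at -0.56 and -0.72, and *Ecsit* at -0.94 and -0.46, whereas *Ndufaf3* was 1.43 in *KD2* (adjusted p = 1.53e-07). Of 23 tested complex IV assembly factors, 4 (17.4%) were lower and 4 higher in *KD1*, and 8 (34.8%) lower and 6 higher in *KD2*, with the lower share in *KD1* below that of all genes and the one in *KD2* near it. Of 13 factors for complexes II, III and V, 5 (38.5%) were lower and 1 higher in *KD1*, and 4 (30.8%) lower and 3 higher in *KD2*. In *KD2* the lower shares of all 3 assembly lists lie near that of all genes and are not a result about them. Of 77 tested mitochondrial ribosomal protein genes, 29 (37.7%) were lower and 8 higher in *KD1*, and 45 (58.4%) lower and 8 higher in *KD2*, with medians of -0.09 and -0.26. Of 13 citric acid cycle genes, 6 (46.2%) were lower and 2 higher in *KD1*, and 9 (69.2%) lower and 0 higher in *KD2*, with medians of -0.11 and -0.45. *Idh3g* had the lowest of these values in each line, -0.66 and -0.96. The differences between these lists and the members were not tested. Values of these lists were not set against the other genes of their chromosomes. *Mrpl36*, the lowest mitochondrial ribosomal protein gene in *KD2* at -1.18, has exons that overlap those of *Ndufs6* on chromosome 13.

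Subunits whose symbols fall outside the naming rule also had negative values. *Cyc1*, the cytochrome c1 of complex III, had 256, 256 and 261 CPM in *WT*, 193, 195 and 186 in *KD1* and 143, 136 and 177 in *KD2*, with log2 fold changes of -0.43 (adjusted p = 0.000407) and -0.76 (adjusted p = 1.64e-06). *Atpif1*, the inhibitor of ATP hydrolysis by complex V, was -0.57 and -0.33. *Cycs*, the carrier cytochrome c, was -0.07 in *KD1* (adjusted p = 0.412) and -0.23 in *KD2* (adjusted p = 0.00962).

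Among regulators of mitochondrial biogenesis, 11 of 19 genes (57.9%) were lower and 1 (5.26%) higher in *KD1*, against 30.0% and 26.9% of all genes. In *KD2*, 12 (63.2%) were lower and 4 (21.1%) higher, against 33.3% and 34.0%. The regulators described here, the factors named in the background, the PGC-1 family and *Tfam*, were chosen after their values were seen. *Ppargc1a*, which encodes the coactivator PGC-1α, had 49.0, 55.2 and 49.9 CPM in *WT*, 10.2, 10.6 and 10.0 in *KD1* and 35.6, 36.8 and 27.6 in *KD2*. The 3 groups did not overlap, and the log2 fold changes were -2.33 (adjusted p = 2.15e-10) and -0.62 (adjusted p = 4.74e-05). *Esrra* had 60.1, 63.6 and 64.4 CPM in *WT* and 63.3, 65.0 and 59.6 in *KD1*, which overlapped, but 28.5, 29.4 and 38.4 in *KD2*, where it was -0.97 (adjusted p = 7.05e-07). *Ppargc1b* was 0.04 in *KD1* and -1.05 in *KD2*, with an adjusted p of 0.784 and 2.86e-06, and *Pprc1* was -0.06 and -0.60. *Nrf1*, with 74.9, 75.4 and 74.1 CPM in *WT*, 59.1, 58.6 and 59.4 in *KD1* and 49.8, 46.8 and 55.3 in *KD2*, was -0.34 and -0.57, and *Gabpa* was -0.30 and -0.61, each past the threshold. *Yy1* was -0.05 in *KD1* (adjusted p = 0.49) and 0.47 in *KD2* (adjusted p = 4.28e-06), and *Tfam*, the factor that packages mitochondrial DNA, was -0.23 and -0.19. Exons of *Gabpa* overlap those of the member *Atp5j*, which is read from the other strand, and the sources used here do not say whether strand was used in counting.

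The motif letters were counted in 70 RefSeq promoters of 65 tested members, each running from 250 bases before the start to 50 after it. NRF1 letters (GCGCANGCG on either strand) stood in 21 of the 70 (30.0%), compared with 12.3% of 13572 promoters of other tested genes and 6.25% of all 32851 promoters. YY1 letters (AAGATGGCG) stood in 7 (10.0%), compared with 2.73% and 1.40%. ETS letters (CCGGAAGT) stood in 5 (7.14%), compared with 7.75% and 3.89%, and ESRRA letters (TCAAGGTCA) in 2 (2.86%), compared with 0.243% and 0.423%. The 20 members with NRF1 letters had a median log2 fold change of -0.34 in *KD1* and -0.33 in *KD2*, and the 45 without them had -0.27 and -0.31. The 7 members with YY1 letters had -0.18 and -0.34, and the 58 without had -0.30 and -0.30. The 5 with ETS letters had -0.15 and -0.09, and the 60 without had -0.30 and -0.32. The 2 with ESRRA letters had -0.40 and -0.52, and the 63 without had -0.29 and -0.30. These differences were not tested. A match is a run of letters and not a site shown to be bound, and members without one may hold a variant or a site outside the window.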

How the data were processed

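HC11 cultures were analysed by line, *WT*, *KD1* and *KD2*, with 3 of each, and the line and replicate number of each came from the labels. The values the authors deposited are raw counts per gene, as whole numbers that were not normalized, for 55228 genes, and every column could be assigned, leaving 0 unassigned. Before that step the authors trimmed reads with fastp, aligned to GRCm38 using HISAT2 and assigned reads to exons, summed by gene, using featureCounts. How reads with several matches and the strand were handled is not given in the sources used here. A read shared by genes, or a pseudogene copy, can therefore move a count.

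The main test was the quasi-likelihood F test of edgeR 4.0.16 (R 4.3.3) on all 9 cultures at once, after TMM normalization and edgeR's own filter, with the Benjamini-Hochberg adjustment taken over 15253 genes. FPKM are CPM per kilobase of merged exons. The code was tested on simulated data. Positions, exon overlaps and lengths came from a GENCODE annotation of GRCm38, and promoters from RefSeq, which matched 69 of the 89 members. Depth was 19231428 to 28360592 counts per culture, and intervals and floors cover counting error only.

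The members and lists were chosen with earlier results of these data known. Named genes were the core subunits, the isoform sets, and per comparison the 5 largest rises and 5 largest falls among members past an adjusted p of 0.05 whose groups did not overlap. A second threshold asked also for an absolute log2 fold change above 1. Alternatives were other scalings, DESeq2 1.42.0, other filters, the 6 cultures compared, a replicate block, a correction for GC content and length, each culture left out, and, added after the data were seen, both libraries that stood apart left out and members on chromosomes 13 and X left out. Normalized values of the authors were not used, and 1 member is not reported here by name.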

Additional observations from a re-analysis of the deposited data

Results flagged for a closer look

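The edited lines differed from each other by more than 2-fold in 2 members, by edgeR's quasi-likelihood test of the difference. *Uqcrfs1*, the Rieske protein of complex III, was lower in *KD2* than in *KD1* by a log2 difference of -1.18 (SE 0.06, adjusted p = 8.93e-10), in 3 of 3 cultures against each of 3. It lies on chromosome 13, whose 588 other tested genes had a median difference of -0.61 between the same lines. *Cox6a2*, the muscle form of a complex IV subunit, was higher in *KD2* by 3.00 (SE 0.58, adjusted p = 0.000402), with 13, 18 and 18 counts in *KD2* and 4, 2 and 0 in *KD1*. The ratio of summed counts per library size was 8.40, with an exact 95% interval of 3.60 to 24.0 that covers counting error only.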

How the results depend on the processing

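No alternative reversed the direction of a called value. Over 42 named genes in 3 comparisons, 2127 of 2391 alternative values kept their direction and their side of the threshold, 103 kept their direction and lost the call, 94 kept it and gained one, and 67 values that were not called changed sign. *Ndufs1* in *KD1* lost its call in 13 alternatives, *Cox8a* in *KD1* in 9, and *Cox6b1* and *Ndufa2* in *KD1* in 8 each. The cause of these changes was not tested. Depth limits what can be said of the 11 members that were not tested and of *Cox6a2*.

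With library size alone as the scale, the median of all genes in *KD2* against *WT* was 0.12 instead of 0.01 and that of the members -0.21, a difference of -0.32 on either scale, and 11 members were higher and 42 lower in *KD2*, with 0 lower past 2-fold. Of all genes, 40.1% were higher and 27.0% lower in *KD2* on that scale. Between the lines, 35 members then favoured *KD2* and 8 favoured *KD1*, against 42.2% and 26.1% of all genes. Members higher in *KD1* numbered 1 under the stricter filter (10 counts in each culture), 2 with the 6 cultures compared, 2 with the GC and length correction, 2 with that correction and the replicate block, and 1 without both libraries that stood apart. Members lower past 2-fold in *KD1* numbered 2 with no filter and 0 under the stricter filter. In *KD2* they numbered 0 with at least 10 counts and 0 without chromosomes 13 and X. Between the lines, the 16 members lower in *KD2* became 25 with the GC and length correction, 26 with the block added, 36 without both libraries that stood apart and 9 without chromosomes 13 and X. Of all genes, 33.0% were lower in the main test, 37.5% with the correction, 37.4% with the block added and 37.6% without both libraries. Members higher past 2-fold numbered 2 with no filter and 0 with at least 10 counts, and those lower past 2-fold 0 without chromosomes 13 and X.

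Leaving out each culture in turn, members higher in *KD1* ranged from 0 to 2 (2 without KD2 replicate 3, against 31.7% of all genes). Those lower in *KD1* ranged from 34 without WT replicate 3 to 62 without KD2 replicate 3. These were 43.6%, against 24.5% of all genes, and 79.5%, against 32.9%. Those lower in *KD2* than in *KD1* ranged from 9 without KD1 replicate 1 to 32 without KD2 replicate 3. These were 11.5%, against 30.2% of all genes, and 41.0%, against 35.3%. With KD1 replicate 2, KD2 replicate 1 or KD2 replicate 2 left out in turn, 10 were lower (12.8%), against 30.0% to 31.3% of all genes. The medians ranged from -0.30 to -0.24 in *KD1* and from -0.40 to -0.25 in *KD2*. The replicate numbers did not pair the cultures: the mean correlation of deviations was 0.00116 for the same number and -0.00109 for other numbers. With the replicate block, 53 members were lower in *KD1* and 54 in *KD2*, compared with 54 and 51 without it.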
